A study of Mus musculus with 6 samples.

Results

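The genes described here encode the integrin subunits and the laminin chains of the mouse. They were chosen by name: symbols that begin with Itga or Itgb followed by a digit or by d, e, l, m, v or x, and symbols that begin with Lama, Lamb or Lamc followed by a digit, leaving out Itgb1bp, Itgb3bp and Itgbl names. The rule found 38 of the 27179 Entrez genes in the count files, 27 integrin and 11 laminin genes. Their RNA was compared between wild type and Smchd1 null neural stem cells, with 3 libraries in each group.

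Laminins are secreted trimers of an alpha, a beta and a gamma chain that build basement membranes. Integrins are surface receptors made of an alpha and a beta subunit, and the pairing decides which matrix protein is bound. In the developing brain, laminin and its beta1-containing integrin receptors anchor neural stem cells to the ventricular and pial surfaces. Smchd1 encodes a chromatin protein needed for lasting gene silencing, among other places on the inactive X chromosome.

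The cells of both groups were derived from brains of male embryos at E14.5 (strain C57BL/6 x FVB/N) and cultured with the growth factors EGF (20 ng/ml) and bFGF (20 ng/ml). The null cells carry MommeD1 on both alleles of Smchd1. All cultures grew on plates coated with polyornithine (15 ng/ml) and laminin protein (10 ng/ml), so each cell had laminin beneath it that its own genes did not make. The labels do not say whether the replicates came from separate embryos or cultures, so the p-values refer to library-to-library spread alone, which may be technical. The sample names of the null libraries end in 11, 12 and 13 and that of wild type replicate 3 in 14, whereas those of wild type replicates 1 and 2 end in 3-digit numbers. What these numbers stand for is not given in the labels.

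Total counts ran from 18608881 to 23253367 per library. Wild type replicate 3 stood apart, since records above 1% of any library made up 58.3% of its counts and 5.84% to 11.7% of the counts of the others. Its effective depth after scaling was 10.1 M counts, against 21.3 to 25.8 M for the others. Smchd1 itself had 271, 260 and 232 counts per M counts (CPM) in wild type replicates 1, 2 and 3 and 27.9 to 31.1 CPM in null, so every library matched its label. Neural stem cell markers were abundant in all libraries, at a sum over 8 genes of 5822 to 6155 CPM in wild type and 5773 to 5929 CPM in null. Counts were scaled by the TMM method, and all CPM values use the scaled library sizes.

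Of the 38 genes, 28 passed the filter on low counts and were tested, and 0 of them changed between the groups at an adjusted p under 0.05 in edgeR's quasi-likelihood test. In the same test 0.577% of all 14207 genes passed. At an unadjusted p under 0.05 stood 11 of the 28, 4 higher and 7 lower in null, beside 18.6% of all tested genes. Values did not overlap between the groups for 11 of the 28, beside 22.0% of all tested genes. The median log2 fold change (null minus wild type) was -0.05 over the 28 genes and 0.00 over all tested genes. For 18 of the 28 the 95% interval of the log2 fold change lay between -1 and 1. A change of 2-fold or more lies outside the interval for those 18 genes, but smaller changes may lie within it.

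The count of calls rested on wild type replicate 3. Without it, 16 of the 28 genes passed in edgeR, beside 39.2% of all genes tested: 7 were higher in null (19.7% of all genes) and 9 lower (19.4%). Those higher were Itga2b, Itga7, Itga8, Itgb3, Itgb7, Itgb8 and Lama1, and those lower were Itga2, Itga4, Itga5, Itga6, Itga9, Itgb1, Itgb5, Lamb2 and Lamc1. That fit compares only wild type replicates 1 and 2 with the null libraries, so genotype and the range of sample names cannot be told apart in it. With the range of sample names added as a term, 0 of the 28 passed, beside 1.31% of all genes. No null library has a 3-digit name, so genotype in this fit compares wild type replicate 3 alone with the null libraries. Wild type replicates 1 and 2 then inform only the spread. This limit holds for every value given below with the sample-name term. For 15 of the 28 genes wild type replicates 1 and 2 both lay on 1 side of the range of the 4 libraries named 11 to 14, and the same held for 52.9% of all tested genes.

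**Figure D1:**
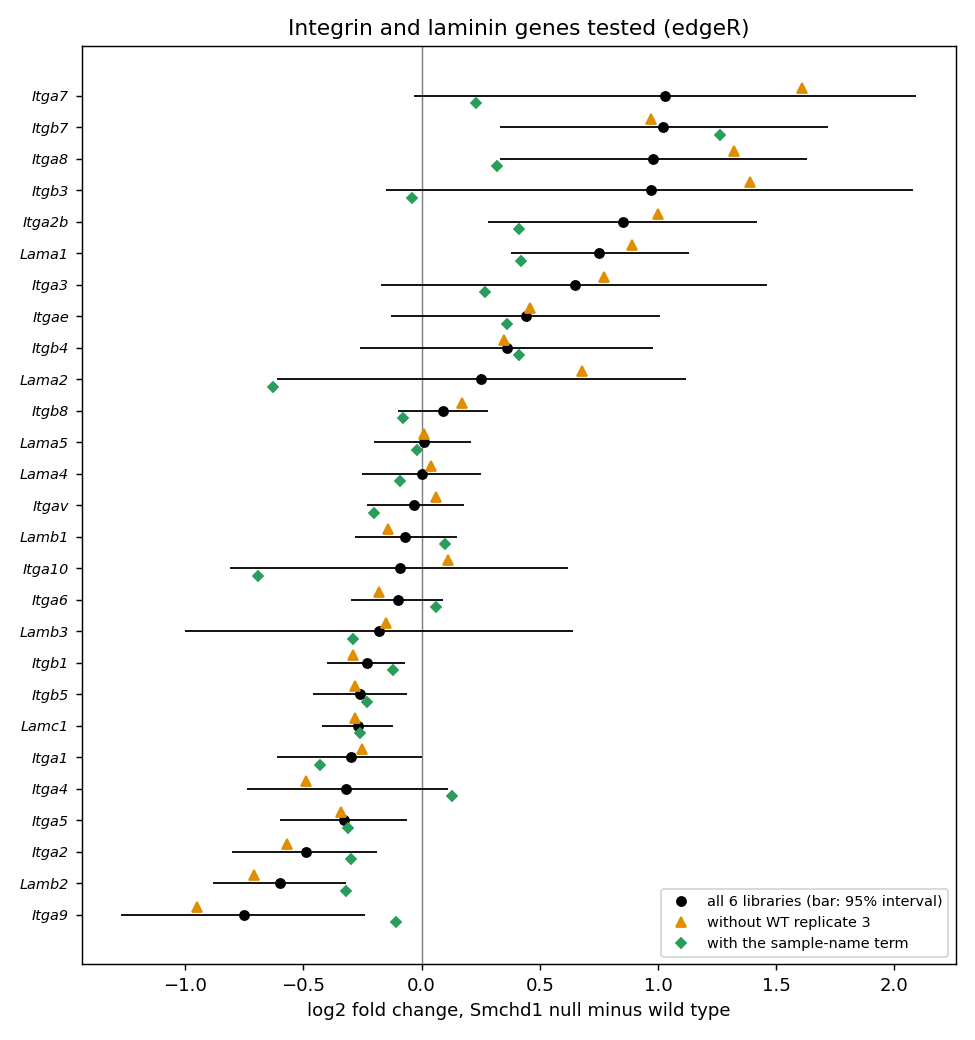
The log2 fold change (null minus wild type) of 27 of the tested genes is shown on the horizontal axis, as a circle with its 95% interval for all 6 libraries, a triangle without wild type replicate 3 and a diamond with the sample-name term. Triangles lie farther from 0 than diamonds for genes such as Itga7 (1.61 against 0.23) and Itga9 (-0.95 against -0.11), whereas all 3 marks of Lamc1 lie between -0.28 and -0.26.

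For 4 of the 24 members with an entry, picked by hand, the RefSeq promoter is printed here (GRCm38.p6, which has the chromosomes of mm10). Each sequence runs from base 250 to base 51 before the transcript start, on the gene's strand. Lamb2 and Itga2 stood lower and Itga8 higher in null, and Itgb1 was the most abundant of all members per kb. None of these genes passed in the edgeR fit of all libraries. Capitals mark the GC box GGGCGG or its reverse complement CCGCCC, the sequence bound by Sp1-type factors.
Lamb2: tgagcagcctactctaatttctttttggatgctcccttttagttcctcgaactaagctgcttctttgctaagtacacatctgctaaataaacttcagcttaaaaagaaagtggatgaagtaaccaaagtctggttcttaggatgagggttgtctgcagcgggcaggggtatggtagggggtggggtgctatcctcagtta
Itgb1: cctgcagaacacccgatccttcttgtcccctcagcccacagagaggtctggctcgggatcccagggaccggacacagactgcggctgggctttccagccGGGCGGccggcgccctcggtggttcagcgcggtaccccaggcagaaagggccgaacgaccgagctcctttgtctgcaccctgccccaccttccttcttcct
Itga2: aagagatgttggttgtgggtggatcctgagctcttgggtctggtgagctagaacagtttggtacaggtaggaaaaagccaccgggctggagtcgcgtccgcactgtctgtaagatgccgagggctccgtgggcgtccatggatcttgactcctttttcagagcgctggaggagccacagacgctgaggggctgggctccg
Itga8: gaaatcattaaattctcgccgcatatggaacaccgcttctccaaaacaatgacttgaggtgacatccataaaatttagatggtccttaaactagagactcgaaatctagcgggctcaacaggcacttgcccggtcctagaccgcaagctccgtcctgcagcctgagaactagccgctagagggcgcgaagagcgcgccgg
The windows lie at chr9:108479612-108479811 (plus strand) for Lamb2, chr8:128685404-128685603 (plus strand) for Itgb1, chr13:114932151-114932350 (minus strand) for Itga2 and chr2:12301995-12302194 (minus strand) for Itga8. Each lies upstream of the annotated span of its gene. The Itgb1 window held 1 GC box and 14 CpG dinucleotides, the Itga8 window 0 and 14, the Itga2 window 0 and 10, and the Lamb2 window 0 and 2. A GC box occurred in 24.6% of the 32851 promoters of the table in the same window, with a median of 4 CpG. Of the 24 members with an entry, 7 held a GC box. A match of letters is a description of these windows and says nothing of binding.

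Laminin chains are described first, with levels compared between genes as CPM per kb of gene length. Lamc1, the gamma chain of most laminins, was the highest, at 44.4 ± 2.02 CPM per kb in wild type and 36.7 ± 1.12 in null (mean ± SD, n = 3, as for all such values). Next came 4 chains that did not differ in wild type beyond their spread: Lama5 (10.9 ± 1.06 CPM per kb), Lamb1 (10.4 ± 1.16), Lama4 (10.4 ± 1.55) and Lamb2 (10.2 ± 1.59). Lama5 and Lama4, the alpha chains of vascular and other adult-type basement membranes, held 47.5% to 51.3% and 45.4% to 47.7% of the alpha chain level per kb in wild type. Lama1, the alpha chain of the earliest embryonic basement membranes, stood at 0.662 ± 0.141 CPM per kb. Lamb3 and Lama2 stood at 0.161 and 0.148 CPM per kb in wild type, and Lama3 and Lamc3, at 0.0322 and 0.0269, were not tested.

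**Figure D2:**
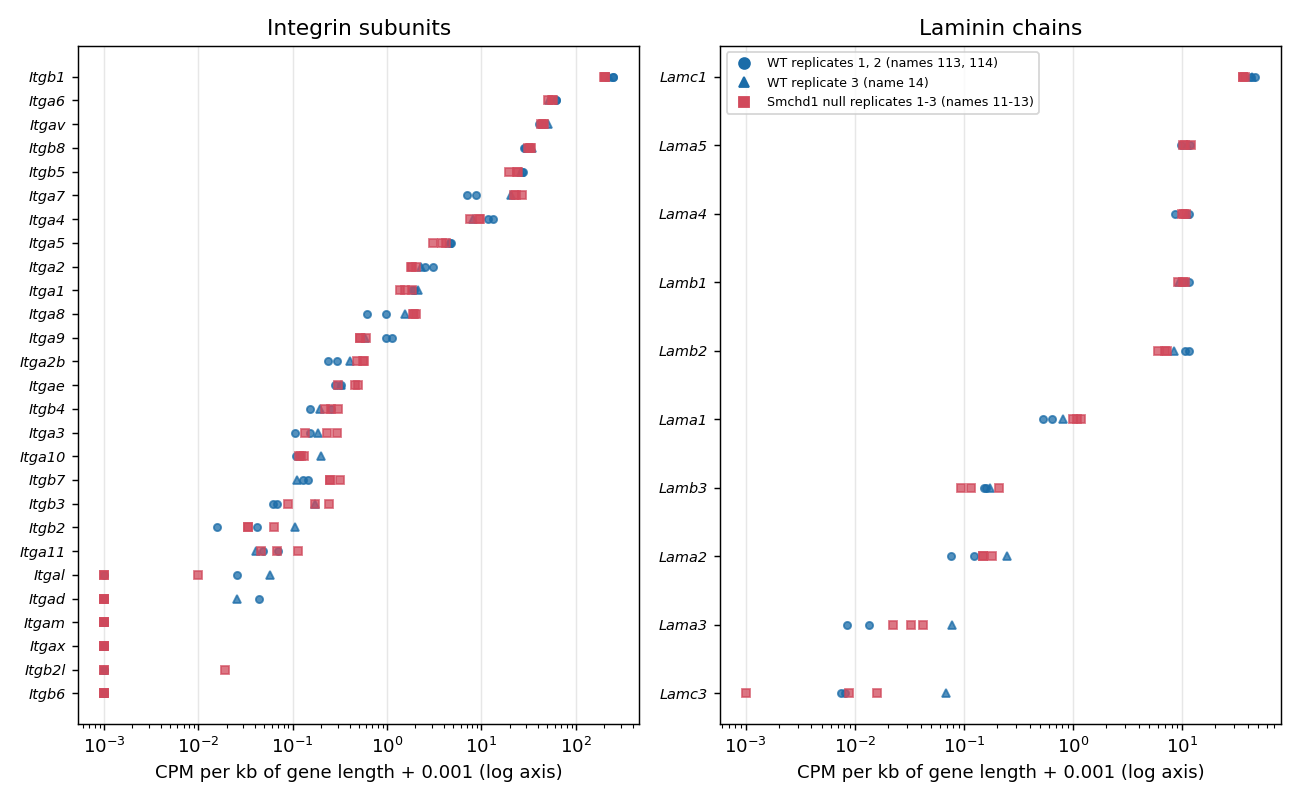
Each point is 1 library's level of 1 gene, in CPM per kb of gene length with 0.001 added so that 0 can be drawn, on a log axis, for the 27 integrin genes (left) and 10 laminin genes (right). Itgb1, at 240.0 CPM per kb in wild type, and Lamc1, at 44.4, head the families, and Itgam, Itgax and Itgb6 lie at 0 in all libraries.

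Lamb2, the beta chain of neuromuscular and mature basement membranes (Entrez 16779, chromosome 9, 108479847 to 108490530, mm10), came closest to the threshold among the laminins and among all 28 genes. It had 59.5, 64.9 and 47.4 CPM in wild type replicates 1, 2 and 3 and 33.9, 40.8 and 39.4 CPM in null replicates 1, 2 and 3. Every null library lay below every wild type library, and wild type replicate 3 was the lowest of its group. By edgeR the log2 fold change was -0.60 ± 0.12 (fold change ± SE here and in what follows; adjusted p = 0.0961). DESeq2 gave an adjusted p of 0.00171 and edgeR without the filter 0.0351. With the sample-name term the log2 fold change was -0.32 ± 0.11 (adjusted p = 0.205). It was -0.71 when wild type replicate 3 was dropped (adjusted p = 2.53e-06).

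Lamb1, the beta chain of embryonic laminins, did not pass. Its values were 59.8, 67.2 and 53.8 CPM in wild type and 61.1, 58.9 and 53.0 CPM in null, and the groups overlapped. The log2 fold change was -0.07, with a 95% interval of -0.28 to 0.15. Lamb2 made up 50.5%, 49.8% and 47.5% of the summed Lamb1 and Lamb2 level per kb in wild type and 36.3%, 41.5% and 43.3% in null. This share does not depend on library scaling, and wild type replicate 3 lay nearer to the other wild type libraries than to the null mean of 40.4%.

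Lamc1 (Entrez 226519, chromosome 1, 153218922 to 153332786, mm10) had 325, 355 and 335 CPM in wild type replicates 1, 2 and 3 and 277, 289 and 273 CPM in null. The groups did not overlap, and wild type replicate 3 lay between the other wild type libraries. Its log2 fold change was -0.27 ± 0.07 (adjusted p = 0.126 by edgeR). It was -0.28 without wild type replicate 3 (adjusted p = 0.000355) and -0.26 ± 0.07 with the sample-name term (adjusted p = 0.0679). The next fit repeats the comparison made with that term and is no separate check on Lamc1. Among the libraries named 11 to 14 alone, where wild type replicate 3 is the only wild type library and is assumed to vary like the others, it passed, at -0.26 (adjusted p = 0.0191). It was the 1 gene of the 29 members tested there that passed, beside 2.55% of all genes.

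Lama1 (Entrez 16772, chromosome 17, 67697127 to 67822645, mm10) stood the other way. It had 5.08, 6.10 and 7.74 CPM in wild type and 11.3, 10.4 and 9.50 CPM in null, with no overlap and wild type replicate 3 the highest of its group. This gave a log2 fold change of 0.75 ± 0.16 (adjusted p = 0.104 by edgeR). DESeq2 gave an adjusted p of 0.0125 and edgeR without the filter 0.0242, and Lama1 stood at 0.42 with the sample-name term (adjusted p = 0.358). Its share of the alpha chain level per kb was 2.81%, 2.65% and 3.50% in wild type and 4.62% to 5.19% in null.

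The major alpha chains did not pass and overlapped between the groups. Lama5 had 111, 135 and 126 CPM in wild type and 120, 137 and 117 CPM in null, with a 95% interval of the log2 fold change of -0.20 to 0.21. Lama4 had 52.2, 69.7 and 66.9 CPM in wild type and 65.7, 62.7 and 60.1 CPM in null, with an interval of -0.25 to 0.25. Lama2, the alpha chain of muscle and Schwann cell basement membranes, spread from 0.736 to 2.38 CPM within wild type and stood at 1.43 to 1.74 CPM in null. Summed per kb, alpha chains stood at 22.1 ± 2.75 CPM per kb in wild type and 22.6 ± 1.16 in null, and beta chains at 20.8 ± 2.72 and 16.9 ± 0.593.

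**Figure D3:**
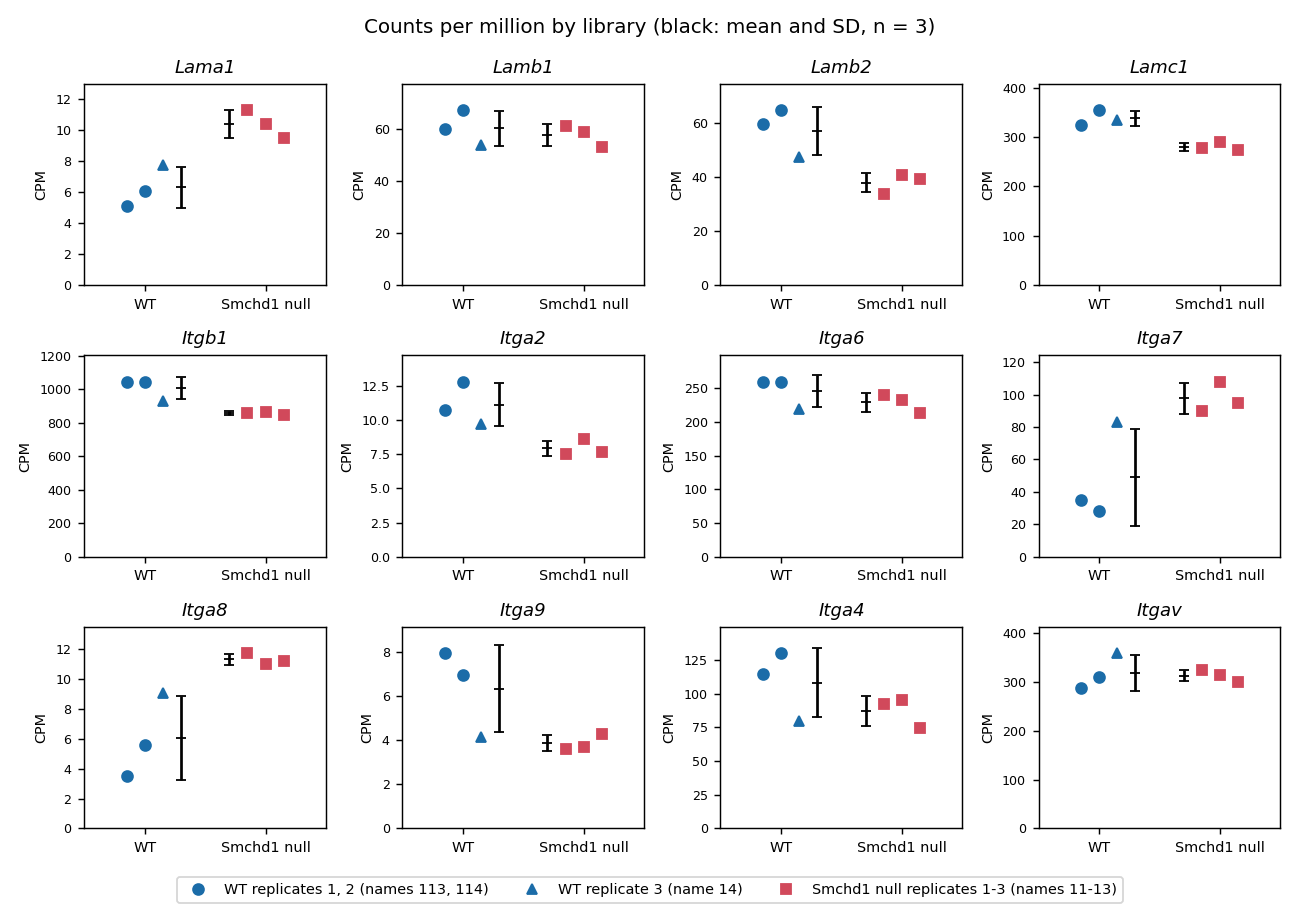
CPM of 12 members in each library, with circles for wild type replicates 1 and 2, a triangle for wild type replicate 3, squares for the null libraries and black bars for the mean and SD (n = 3). Lamc1 and Lamb2 lie lower in every null library than in any wild type library, whereas for Itga7 and Itga9 wild type replicate 3 (83.1 and 4.17 CPM) lies close to the null libraries.

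Among integrin beta subunits, Itgb1, the partner of most laminin, collagen and fibronectin receptors, held 78.3% to 81.5% of the summed beta level per kb in wild type. Itgb8 and Itgb5, which pair with Itgav, followed at 9.33% to 12.1% and 8.83% to 9.36%. Itgb1 (Entrez 16412, chromosome 8, 128685654 to 128733579, mm10) had 1043, 1045 and 932 CPM in wild type replicates 1, 2 and 3 and 860, 865 and 844 CPM in null. The groups did not overlap, and wild type replicate 3 lay below the rest of its group. Itgb1 stood at a log2 fold change of -0.23 ± 0.07 (adjusted p = 0.189 by edgeR and 0.0332 by DESeq2), and -0.12 with the sample-name term (adjusted p = 0.378).

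Itgb5, a receptor subunit for vitronectin, had 88.4, 91.2 and 87.2 CPM in wild type and 64.5, 78.7 and 79.4 CPM in null. All null values lay below the wild type values, and wild type replicate 3 stood with its own group. Its log2 fold change was -0.26 ± 0.09 (adjusted p = 0.205), and -0.23 with the sample-name term (adjusted p = 0.386).

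Itgb8, whose dimer with Itgav activates latent TGF-beta in the developing brain, had 89.6, 88.3 and 106 CPM in wild type and 101, 97.0 and 104 CPM in null. Wild type replicate 3 was the highest of all 6 libraries. With all libraries its log2 fold change was 0.09 ± 0.08 (adjusted p = 0.556), and with wild type replicate 3 left out it passed in edgeR, at 0.17 (adjusted p = 0.0158). The share of Itgb8 in the beta level per kb was 9.50%, 9.33% and 12.1% in wild type and 12% to 12.9% in null.

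The remaining beta subunits were low, under 2 CPM in every library. Itgb7, a leukocyte subunit, had 0.388, 0.341 and 0.298 CPM in wild type and 0.846, 0.656 and 0.669 CPM in null, with a log2 fold change of 1.02 ± 0.30 (adjusted p = 0.174). Groups did not overlap for 11 members. In all of them except Itgb7 and Lamc1, wild type replicates 1 and 2 also stood apart from the 4 libraries named 11 to 14. Itgb7 had only 3 counts in wild type replicate 3, so its exception rests on few counts. Margins were small for Itga5 (20.0 CPM in wild type replicate 3 against 20.1 in replicate 1) and Itgb5 (87.2 against 88.4). How often such exceptions occur among all tested genes was not counted, so their number has no background here. Itgb3, the platelet and endothelial vitronectin receptor subunit, had 0.349, 0.384 and 0.992 CPM in wild type and 0.987, 0.515 and 1.38 CPM in null. Its log2 fold change was 0.97 ± 0.49 (adjusted p = 0.316), and -0.04 with the sample-name term (adjusted p = 0.987). Itgb4, the hemidesmosome subunit that pairs with Itga6, had 0.930 to 1.58 CPM in wild type and 1.34 to 1.87 CPM in null. Itgb6, an epithelial subunit, had 0 counts in all libraries. The floor was set at 3 counts, which come to 0.116 to 0.298 CPM by library.

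Among alpha subunits, 2 genes held most of the level per kb. Itga6, the laminin receptor used to isolate many stem cells, took 46.0%, 44.4% and 36.1% of the summed alpha level in wild type and 37.4% to 39.1% in null. Itgav, the shared partner of the vitronectin and TGF-beta receptors, took 30.3% to 35.3% and 30.1% to 31.7%. Neither passed. Itga6 had 260, 259 and 219 CPM in wild type and 240, 233 and 214 CPM in null (fold change on the log2 scale -0.10, 95% interval -0.30 to 0.09). Itgav had 287, 311 and 359 CPM in wild type and 324, 314 and 301 CPM in null (-0.03, interval -0.23 to 0.18). Itga6 passed without wild type replicate 3, at -0.18 (adjusted p = 0.0107 in edgeR), and was 0.06 with the sample-name term.

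Itga7, a laminin receptor subunit best known from muscle and glia (Entrez 16404, chromosome 10, 128933421 to 128958286, mm10), varied widely within wild type. It had 35.2 and 28.4 CPM in wild type replicates 1 and 2 and 83.1 CPM in replicate 3, against 89.8, 108 and 94.6 CPM in null. The groups did not overlap, but wild type replicate 3 lay close to the lowest null library. Over all libraries the log2 fold change was 1.03 ± 0.42 (adjusted p = 0.276). It was 1.61 (adjusted p = 2.93e-06) when wild type replicate 3 was left out and 0.23 ± 0.13 with the sample-name term (adjusted p = 0.51). Of the laminin receptor alpha level per kb (Itga3, Itga6 and Itga7), Itga7 took 12.4%, 10.3% and 28.3% in wild type and 28.0% to 32.7% in null. Itga3, the other laminin receptor subunit, was low, at 0.512 to 0.893 CPM in wild type and 0.656 to 1.43 CPM in null.

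Markers of the oligodendrocyte lineage, like Itga7, were lowest in wild type replicates 1 and 2, but differed from Itga7 in wild type replicate 3. There all 8 markers lay above every null library, whereas Itga7 (83.1 CPM) lay below every null library. The sum over the 8 markers was 1264, 1164 and 1675 CPM in wild type replicates 1, 2 and 3 and 1480 to 1572 CPM in null. All 8 genes were lower in wild type replicates 1 and 2 than in any other library. Such a separation, in either direction, held for 52.9% of all tested genes. Pdgfra, a receptor of oligodendrocyte precursors, had 17.1, 18.3 and 167 CPM in wild type and a mean of 126 ± 12.6 CPM in null. Sox10, a transcription factor of the lineage, had 0.543, 0.426 and 7.24 CPM in wild type and 3.01 to 3.75 CPM in null. Of 8 pericyte and fibroblast markers, 4 lay lower in wild type replicates 1 and 2 than in every other library and 0 higher. None of these 8 exceeded 1.24 CPM. Of 8 microglial markers 0 separated in this way, and of 7 endothelial markers 1 lay lower and 1 higher. Only 1 of the microglial, 2 of the endothelial and 3 of the pericyte and fibroblast markers passed the filter on low counts. Genes with 0 counts cannot separate, and the 52.9% covers tested genes only, so the counts of these lists cannot be set beside it. The astrocyte, neuron and neural stem cell lists split both ways. Of 6 astrocyte markers 4 lay lower and 1 (Gja1) higher in wild type replicates 1 and 2 than in every other library, of 6 neuron markers 2 lower and 2 higher, and of 8 neural stem cell markers 2 lower and 3 higher. Astrocyte markers had sums of 302 to 333 CPM in wild type and 288 to 306 CPM in null. Neuron markers summed to 1089 to 1125 CPM in wild type and 991 to 1024 CPM in null, nearly all of it Map2 (1058 to 1101 and 967 to 999 CPM). Dcx, a marker of young neurons, had 0.814, 0.384 and 5.56 CPM in wild type and 3.19 to 4.15 CPM in null. Rbfox3, another neuron marker, went the other way, at 1.28, 1.07 and 0.794 CPM in wild type and 0.376, 0.937 and 0.401 CPM in null. The part of these cell types in the integrin and laminin values was not tested. In RNA from whole cultures, fewer cells of a type and less RNA per cell cannot be told apart.

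**Figure D4:**
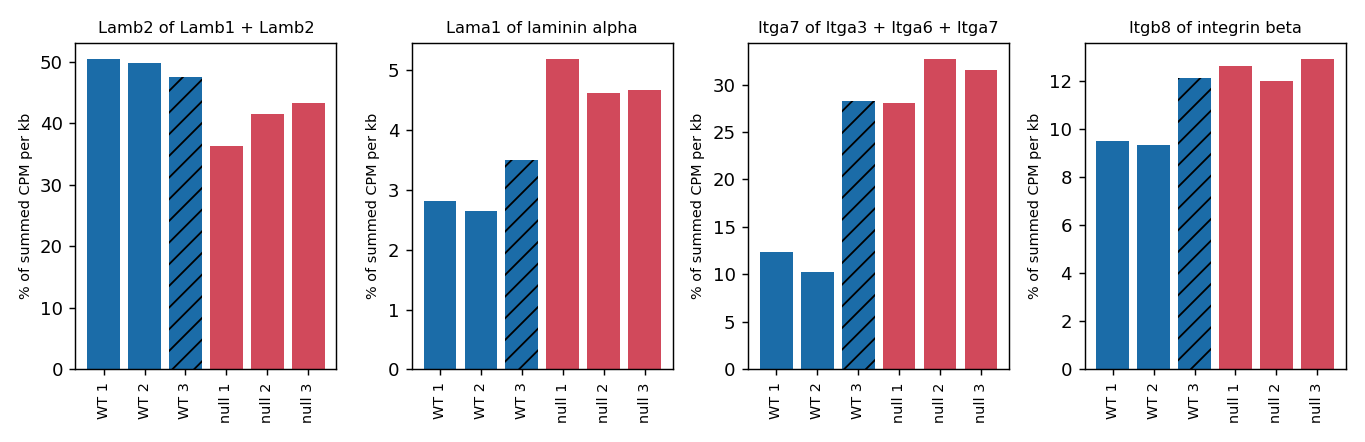
Bars give, for each library, the percentage of a summed CPM per kb held by 1 gene: Lamb2 within Lamb1 and Lamb2, Lama1 within the laminin alpha chains, Itga7 within the laminin receptor alpha subunits, and Itgb8 within the integrin beta subunits, with wild type replicate 3 hatched. Wild type replicate 3 stands with its group for Lamb2 (47.5%) and beside the null libraries for Itga7 (28.3%) and Itgb8 (12.1%).

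Itga8, the nephronectin receptor subunit (Entrez 241226, chromosome 2, 12106632 to 12301985, mm10), was lower in level and similar in pattern. It had 3.53, 5.59 and 9.03 CPM in wild type and 11.7, 11 and 11.2 CPM in null, with no overlap. Itga8 stood at a log2 fold change of 0.98 ± 0.28 (adjusted p = 0.173 by edgeR and 0.0447 by DESeq2). Dropping wild type replicate 3 raised it to 1.32 (adjusted p = 7.34e-06), and the value was 0.32 with the sample-name term (adjusted p = 0.557). Itga2b, the platelet fibrinogen receptor subunit, had 0.814, 1.02 and 1.39 CPM in wild type and 1.64, 1.92 and 1.96 CPM in null (0.85 ± 0.25, adjusted p = 0.173), and stood at 0.41 with the sample-name term (adjusted p = 0.708).

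Itga5, the classical fibronectin receptor subunit, had 20.1, 20.7 and 20.0 CPM in wild type and 16.8, 18.3 and 13.4 CPM in null. All null libraries lay below wild type, and wild type replicate 3 matched its group. Its log2 fold change was -0.33 ± 0.12 (adjusted p = 0.22), and -0.31 with the sample-name term (adjusted p = 0.427).

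Itga4 and Itga9, related subunits that bind fibronectin, tenascin-C and osteopontin, were lowest among the wild type libraries in replicate 3. Itga4 had 115, 130 and 79.9 CPM in wild type and 92.3, 95.2 and 74.2 CPM in null, and the groups overlapped. Itga9 had 7.95, 6.95 and 4.17 CPM in wild type and 3.62, 3.70 and 4.28 CPM in null, and overlapped as well. Their log2 fold changes were -0.32 ± 0.18 (adjusted p = 0.365) and -0.75 ± 0.22 (adjusted p = 0.174). Without wild type replicate 3 both passed, Itga4 at -0.49 (adjusted p = 0.012) and Itga9 at -0.95 (adjusted p = 6.39e-05), and with the sample-name term they stood at 0.13 and -0.11.

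Of the collagen receptor subunits, Itga2 had 10.7, 12.8 and 9.72 CPM in wild type and 7.52, 8.57 and 7.67 CPM in null, without overlap (log2 fold change -0.49 ± 0.13, adjusted p = 0.153). With the sample-name term it stood at -0.30 (adjusted p = 0.528). Itga1 had 11 to 12.8 CPM in wild type and 8.20 to 11 CPM in null (-0.30 ± 0.14, adjusted p = 0.273), and Itga10 and Itga11 stood below 1 CPM in every library.

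Most leukocyte integrins were near 0, as were microglial markers. Itgam and Itgax, the alpha subunits of the complement receptors of macrophages and microglia, had 0 counts in all libraries. Their partner Itgb2 had 0.0426 to 0.298 CPM in wild type and 0.0937 to 0.178 CPM in null, and Itgal, Itgad and Itgb2l had no more than 0.298 CPM in any library. Of 8 microglial markers, C1qa, C1qb and Tyrobp had 0 counts throughout, and the sum of the list was 1.86 to 3.03 CPM in wild type and 1.97 to 2.48 CPM in null, most of it P2ry12. Itgae, the partner of Itgb7, was the highest alpha subunit of this class, at 1.28 to 1.49 CPM in wild type and 1.38 to 2.25 CPM in null. Endothelial markers summed to 3.77 to 4.01 CPM in wild type and 2.63 to 3.57 CPM in null with Cdh5 at 0 counts, and pericyte and fibroblast markers to 1.09 to 3.08 CPM and 2.44 to 2.99 CPM.

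The number of calls differed between tools. DESeq2 called 5 of the 28 (Lamb2, Lamc1, Lama1, Itga8 and Itgb1), beside 2.82% of all genes. The limma-voom test called 0, beside 0.894%, and with sample quality weights it called 13, beside 36.4%. When the filter was dropped, edgeR called 2 of 35 (Lamb2 and Lama1), beside 1.05%.

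Genes that work with integrins and laminins were taken as 4 lists with 56 genes in all, of which 49 were tested and 0 passed in edgeR. Of 17 tested genes of the intracellular adhesion complex, 6 had an unadjusted p under 0.05 (18.6% of all genes), and the median log2 fold change was -0.16. The smallest p belonged to Parva, which encodes parvin, a link between integrin-linked kinase and actin. It had 46.9, 49.0 and 44.9 CPM in wild type and 36.6, 35.8 and 35.8 CPM in null (fold change on the log2 scale -0.38 ± 0.07, adjusted p = 0.0505 by edgeR and 0.038 by limma-voom). All null libraries lay below all wild type libraries, and with the sample-name term Parva stood at -0.32 (adjusted p = 0.104). Tns3, a tensin that binds the tails of beta subunits, had 198, 212 and 173 CPM in wild type and 157, 163 and 159 CPM in null (-0.29 ± 0.08, adjusted p = 0.168), and stood at -0.12 with the sample-name term (adjusted p = 0.479).

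Among 15 tested matrix partners, 5 had an unadjusted p under 0.05 (18.6% of all genes), and the median was -0.14. Spp1, osteopontin, a ligand of Itgav and Itga9 dimers, had 43.3, 49.9 and 34.4 CPM in wild type and 28.8, 28.6 and 24.2 CPM in null (fold change on the log2 scale -0.66 ± 0.13, adjusted p = 0.0961). Nid1, nidogen, which binds the laminin gamma1 chain, had 1.40, 0.640 and 2.08 CPM in wild type and 4.28, 3.51 and 3.17 CPM in null (1.52 ± 0.35, adjusted p = 0.119). Neither gene's groups overlapped. The sample-name term moved Spp1 to -0.34 (adjusted p = 0.246) and Nid1 to 0.81 (adjusted p = 0.391). Tnc, tenascin-C, was the most abundant partner, at 2997 to 3578 CPM in wild type and 2833 to 3023 CPM in null.

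Among 11 surface partners 4 had an unadjusted p under 0.05 (18.6% of all genes), and the median was 0.05. Bcam, a receptor for laminin alpha5, had 1.47, 1.02 and 1.79 CPM in wild type and 2.40, 2.86 and 3.30 CPM in null (1.05 ± 0.25, adjusted p = 0.127). The syndecan Sdc4 had 43.2, 44.0 and 58.3 CPM in wild type and 58.4, 65.5 and 75.6 CPM in null (0.46 ± 0.14, adjusted p = 0.174). Wild type replicate 3 reached almost to the lowest null library for Sdc4. The sample-name term moved Bcam to 0.68 (adjusted p = 0.454) and Sdc4 to 0.19 (adjusted p = 0.573). Cd81, a tetraspanin that associates with integrins, had 498, 466 and 536 CPM in wild type and 388, 431 and 465 CPM in null. With all libraries its log2 fold change was -0.22 ± 0.09 (adjusted p = 0.235 by edgeR). Among the libraries named 11 to 14 alone, where wild type replicate 3 is the only wild type library, Cd81 stood at -0.33.

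Among 6 tested genes of latent TGF-beta 3 had an unadjusted p under 0.05 (18.6% of all genes), and the median was -0.23. Ltbp1, a binding protein of the latent complex, had 21.4, 23.7 and 17.1 CPM in wild type and 14.2, 13.9 and 16.1 CPM in null (-0.50 ± 0.13, adjusted p = 0.137). The ligand Tgfb2 had 23.8, 26.9 and 22.4 CPM in wild type and 19.2, 22.4 and 17.6 CPM in null (-0.31 ± 0.11, adjusted p = 0.22), and its groups nearly met, at 22.4 CPM to 3 digits. The sample-name term moved Ltbp1 to -0.21 (adjusted p = 0.569) and Tgfb2 to -0.19 (adjusted p = 0.636). Over the 4 lists, leaving out wild type replicate 3 gave 10 genes higher in null (19.7% of all genes) and 21 lower (19.4%) in edgeR, whereas the sample-name term left 0 (1.31%). DESeq2 called Nid1 higher and Parva, Spp1, Ntn4 and Ltbp1 lower, beside 2.82% of all genes.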

How the data were processed

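RNA from 6 libraries was sequenced as single reads from the unstranded Illumina TruSeq RNA v2 kit, from 1 µg of total RNA per library, per the labels' protocols, so overlapping antisense genes cannot be told apart. In the deposited files stand the authors' raw counts per Entrez gene with a gene length, and the submitters' processing notes name CASAVA 1.8.2, featureCounts, edgeR 3.8.2, limma 3.22.0 and mm10. No aligner or annotation is named there. Symbols and coordinates came from a RefSeq table of GRCm38.p6, which matched 25275 of 27179 IDs.

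Counts were filtered with filterByExpr (14207 genes kept), scaled by TMM and tested with edgeR 4.0.16 in R 4.3.3 by a robust quasi-likelihood F-test, two-sided, with genotype as the only term and Benjamini-Hochberg adjustment over all tested genes. Each standard error is the log2 fold change divided by the square root of F, and 95% intervals use it. Alternatives used DESeq2 1.42.0, limma-voom (limma 3.58.1), other scalings and filters, a replicate block, a sample-name term, left-out libraries and thinning. The test was checked on counts simulated at these depths, without a shared split between libraries of a group. That check therefore does not cover the gap between wild type replicate 3 and the rest of its group. The floor of 3 counts covers counting error only.

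The members, partner lists and marker lists were chosen with earlier results of these data known. Genes named with values in every library were the members that passed in the fit of all libraries, in that without wild type replicate 3 or in that with the sample-name term, the 4 highest members of each family per kb in wild type, partners called with all libraries, and the 2 partners with the smallest p in each list. Other genes were named to complete the families, or after their values were seen. The values of 1 member are not reported here, though it is included in counts and medians over all members.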

Additional observations from a re-analysis of the deposited data

How the results depend on the processing

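The number of integrin and laminin genes called was 0 in the edgeR fit of all libraries and also with limma-voom, without robust moderation, with RLE or upper quartile scaling, with a stricter filter, with the sample-name term, and after the records above 1% were removed, with and without thinning to equal totals. It was 5 with DESeq2, 13 with limma-voom and sample quality weights, 2 without a filter, 1 with only the libraries named 11 to 14, and 0 to 16 with 1 library left out, where the 16 came without wild type replicate 3 and each other omission gave 0. The number of all genes called, 82, was 401 with DESeq2, 127 with limma-voom, 5168 with quality weights, 222 without a filter, 186 with the sample-name term, 376 with only the libraries named 11 to 14, and 30 to 5676 with 1 library left out. The cause was not tested.

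With the replicate number as a block, 0 members and 54 of all genes were called, against 82. Same-numbered libraries had correlations of -0.01, 0.03 and -0.04 between their deviations from the group means. Differently numbered libraries had -0.05 to 0.06. The wild type deviations carry the gap between replicate 3 and the rest of its group. These correlations therefore cannot decide whether the numbers mark pairs. Among the partner genes, Spp1 passed with the block (adjusted p = 0.0484). Not every library correlated best with its own number.

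Signs turned for some members, and no member had passed in the fit of all libraries. With the sample-name term Lama2 stood at -0.63, Itgb3 at -0.04, Lamb1 at 0.10 and Itgb8 at -0.08. Itga6 stood there at 0.06, Itga4 at 0.13 and Lama5 at -0.02. The fit of only the libraries named 11 to 14 gave the same values. Both fits compare wild type replicate 3 with the null libraries, so this match follows from the design. Quality weights gave 0.05 for Itgav and 0.08 for Itga10, and thinning gave -0.05 for Lama2, -0.13 for Itgb4 and -0.02 for Lama5. With 1 library left out, log2 fold changes ran from -0.60 to 0.04 for Lamb3, -0.11 to 0.68 for Lama2, -0.14 to 0.02 for Lamb1, -0.10 to 0.06 for Itgav, -0.07 to 0.07 for Lama5 and -0.26 to 0.11 for Itga10. Depth limits the members under 1 CPM most, where wild type replicate 3 needs 0.298 CPM for 3 counts.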
